A study of Laccaria bicolor with 37 samples.

Results

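The mycorrhiza-induced small secreted proteins MiSSP7 (gene model 298595), MiSSP8 (388224) and MiSSP17 (332226) of the ectomycorrhizal fungus Laccaria bicolor were followed through the formation of ectomycorrhiza with poplar. The 3 gene models were identified by number out of 23130 gene models in each table. Transcript lengths that follow from the deposited values were 279 bases for MiSSP7, 334 bases for MiSSP8 and 543 bases for MiSSP17. All 3 passed the filter on low counts and were tested, among 15533 gene models in all. MiSSP8 and MiSSP17 also stand in the lists of regulated gene models that the study made from this time course. The study places MiSSP7 in a cluster of gene models with maximal expression in mature ectomycorrhiza, made in part from these libraries. The direction of the differences is therefore not independent evidence for any of the 3.

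In an ectomycorrhiza the hyphae wrap short lateral roots in a mantle and grow between the outer root cells as the Hartig net, where both partners exchange nutrients. MiSSPs are short proteins with a secretion signal whose genes are expressed more strongly in root tips colonised by the fungus than in mycelium alone. Some of them act as effectors, that is, as proteins that enter or contact host cells and alter their responses. MiSSP7 enters the nuclei of poplar root cells, where it binds and stabilises a repressor of the jasmonate pathway, and the fungus forms the Hartig net poorly when the gene is silenced. MiSSP8 carries a repeated motif of the kind cut by the KEX2 protease, and its silencing also lowers the rate of mycorrhiza formation. MiSSP17 is annotated with a cysteine-rich region.

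The 37 RNA-seq libraries came from strain S238N grown in vitro with or without cuttings of the hybrid poplar Populus tremula x alba 717-1B4, on a medium low in sugar. EcM was the material on and close to the roots, labelled as ectomycorrhizal root tips, in which mycelium and root tissue were extracted together. ExM was extramatrical mycelium of the co-culture plates farther from a root. FLM was free-living mycelium of plates that were handled alike but held no plant. All kinds of mycelium were harvested 3, 7, 14 and 21 days post-inoculation (dpi), with a further harvest of FLM at 0 dpi, which gave 13 groups of 3 libraries, with 2 libraries for ExM at 14 dpi and for FLM at 0 dpi. The labels call the libraries biological replicates. The lysis buffer of the EcM samples held an additive that the other samples did not receive, so that its part and that of the plant in a difference with EcM cannot be told apart.

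The depth was between 13.82 and 28.87 M (megacounts) in EcM libraries, between 14.82 and 31.78 M in ExM and between 16.59 and 36.82 M in FLM. A library was taken to be at its floor with a count of 3, which amounted to 0.082 to 0.217 counts per megacount (CPM). This floor, like the counting intervals given below, covers counting error only. For 28 of the 37 libraries the library with the most similar transcriptome was of the same group, and for 5 it was of another kind of mycelium, among them EcM replicate 1 of 7 dpi, which was closest to ExM replicate 3 of that day. A difference between groups counted as called where edgeR's quasi-likelihood test, adjusted over all gene models after Benjamini and Hochberg, gave a p below 0.05 for a log2 fold change of 1 or more in either direction. Overlap between the libraries of groups is given as a description only. The share of all gene models without overlap was not counted. In these mixtures of cells, fewer hyphae that express a gene and less RNA per hypha cannot be told apart.

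MiSSP17 was the gene model with the widest contrast between mycelium at the root and elsewhere. In EcM its level in RPKM (reads per kilobase of transcript and megaread of the library) was 4.21, 3.77 and 2.87 in the libraries of 3 dpi, 3.72, 7.62 and 8.31 at 7 dpi, 18.9, 26.4 and 20.5 at 14 dpi and 10.7, 14.8 and 3.45 at 21 dpi. In ExM the levels were 0.400, 0.554 and 0.792 RPKM at 3 dpi, 0.432, 0.277 and 0.0580 RPKM at 7 dpi, 0.616 and 0.209 RPKM at 14 dpi and 0.124, 0.482 and 0.251 RPKM at 21 dpi. The FLM libraries had 0.555 and 0.245 RPKM at 0 dpi, 0.106, 0.256 and 0.187 RPKM at 3 dpi, 0.297, 0.0913 and 0.600 RPKM at 7 dpi, 0.431, 0 and 0 RPKM at 14 dpi, and 0, 0.102 and 0.0891 RPKM at 21 dpi. Every EcM library thus lay above every library of ExM and FLM, whatever the day. Behind these values stood 27 to 235 counts in an EcM library, 1 to 11 counts in an ExM library and 0 to 12 counts in an FLM library, so that most libraries without root contact were near or under the floor.

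Compared with FLM of the same day, MiSSP17 was called higher in EcM on each of the 4 days. The log2 fold change was 4.31 ± 0.67 at 3 dpi (SE, n = 3 each, adjusted p 3e-04), 4.21 ± 0.55 at 7 dpi (adjusted p 1e-05), 7.44 ± 0.63 at 14 dpi (adjusted p 2e-10) and 7.10 ± 0.77 at 21 dpi (adjusted p 3.4e-08). Because the FLM counts were so few, the ratio of the summed counts is given with its exact interval of counting error. At 3 dpi 140 counts in EcM stood against 7 in FLM, a ratio of 21.3 per unit of depth with a 95% interval from 10.1 to 54.1. At 14 dpi the counts were 634 in EcM and 5 in FLM, a ratio of 185 with an interval from 78.7 to 571, and at 21 dpi 239 in EcM and 2 in FLM, a ratio of 145 with an interval from 39.7 to 1203. The size of the late ratios was thus known only within wide limits. All 5 counts of FLM at 14 dpi came from replicate 1. Against the floor of the other two libraries MiSSP17 was at least 107-fold higher in EcM, while the fitted log2 fold change without replicate 1 was 11.02, and without replicate 2 it was 6.71. At 7 dpi 12 of the 17 FLM counts came from replicate 3, without which the log2 fold change was 5.01.

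**Figure D1:**
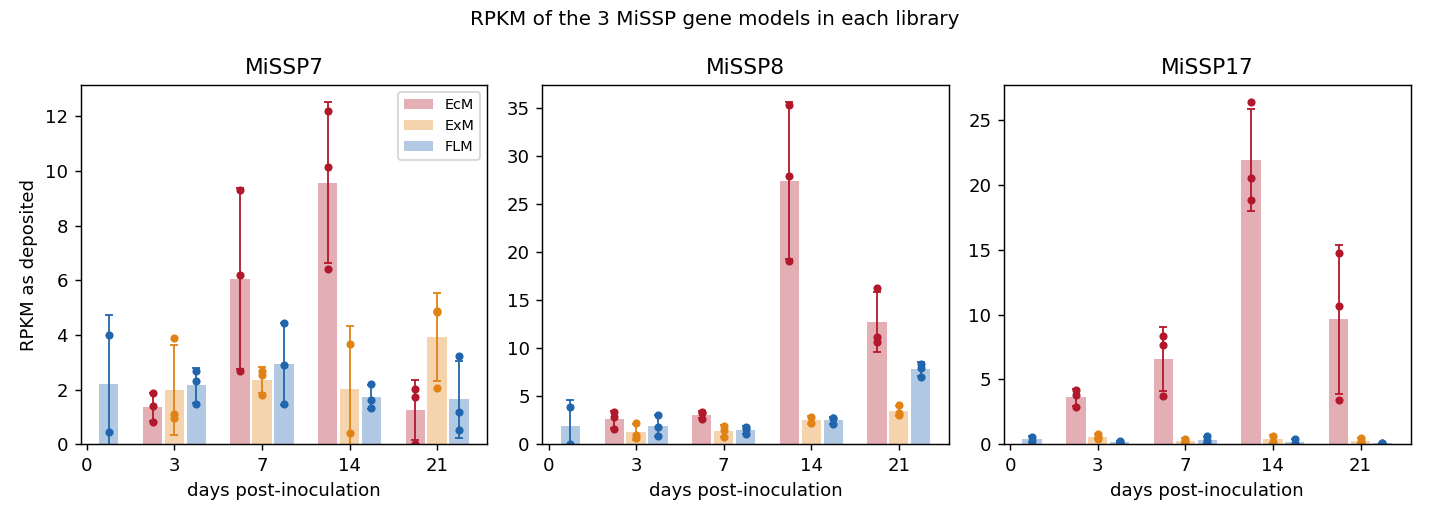
RPKM as deposited (vertical axis, linear, 1 scale per panel) of MiSSP7, MiSSP8 and MiSSP17 against days post-inoculation, with a point for each library and bars and whiskers for the mean and SD of each group, in the order EcM, ExM and FLM within a day. The highest bar of each panel is EcM at 14 dpi, with means of 9.58, 27.4 and 21.9 RPKM, and MiSSP8 shows a second elevation in FLM at 21 dpi at 7.79 RPKM.

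MiSSP8 had low levels in every kind of mycelium during the first week and a high level at the root at 14 dpi. In EcM it was at 3.32, 2.87 and 1.55 RPKM at 3 dpi, 3.31, 2.64 and 3.24 RPKM at 7 dpi, 19.1, 35.3 and 27.9 RPKM at 14 dpi and 11.1, 10.7 and 16.3 RPKM at 21 dpi. The ExM libraries had 0.651, 2.25 and 0.936 RPKM at 3 dpi, 0.703, 1.50 and 1.88 RPKM at 7 dpi, 2.84 and 2.21 RPKM at 14 dpi and 3.03, 4.07 and 3.26 RPKM at 21 dpi. In FLM the levels were 0 and 3.86 RPKM at 0 dpi, 0.863, 3.05 and 1.83 RPKM at 3 dpi, 1.57, 1.04 and 1.79 RPKM at 7 dpi, 2.10, 2.71 and 2.69 RPKM at 14 dpi and 7.01, 7.97 and 8.40 RPKM at 21 dpi. The EcM libraries of 14 dpi exceeded all others, those of EcM at 21 dpi came next, and FLM at 21 dpi followed, with no overlap between these 3 groups or with any other group.

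At 14 dpi MiSSP8 was higher in EcM than in FLM by 3.58 ± 0.42 on the log2 scale (SE, n = 3 each, adjusted p 8.3e-08). On the other days the difference from FLM was not called. It was 0.56 ± 0.50 at 3 dpi (adjusted p 0.6), 1.15 ± 0.50 at 7 dpi (adjusted p 0.13) and 0.85 ± 0.38 at 21 dpi (adjusted p 0.084). The value at 21 dpi was under the size threshold of 1, so it could not be called at any p. The EcM libraries of 7 and of 21 dpi lay above all FLM libraries of their day. FLM itself had a higher level late, since MiSSP8 was called higher in FLM at 21 dpi than at 14 dpi, by 1.76 ± 0.43 (adjusted p 0.0023) and with no overlap. That call was lost with limma on log2 RPKM (1.61, adjusted p 0.082).

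MiSSP7 had its highest mean levels in EcM at 14 and 7 dpi. In EcM its level was 1.86, 1.40 and 0.826 RPKM at 3 dpi, 6.20, 9.29 and 2.70 RPKM at 7 dpi, 6.41, 12.2 and 10.1 RPKM at 14 dpi and 1.73, 0 and 2.01 RPKM at 21 dpi. In ExM it was 3.90, 0.943 and 1.12 RPKM at 3 dpi, 2.69, 2.52 and 1.81 RPKM at 7 dpi, 0.400 and 3.66 RPKM at 14 dpi and 4.84, 2.06 and 4.88 RPKM at 21 dpi. The FLM libraries had 0.432 and 3.98 RPKM at 0 dpi, 2.69, 2.33 and 1.46 RPKM at 3 dpi, 2.89, 4.44 and 1.46 RPKM at 7 dpi, 1.34, 2.20 and 1.61 RPKM at 14 dpi and 3.23, 1.19 and 0.520 RPKM at 21 dpi. The EcM libraries of 14 dpi lay above every library of ExM and FLM, those of 7 dpi overlapped with FLM of that day, and EcM at 3 and 21 dpi had the lowest means of the 13 groups. Counts of MiSSP7 were low throughout, from 0 to 51 per library, and its libraries scattered more than those of the other two gene models, with a biological coefficient of variation of 0.510, against 0.292 for MiSSP8, 0.379 for MiSSP17 and 0.142 as the common value of all gene models.

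Relative to FLM, MiSSP7 was called higher in EcM at 14 dpi only, by 2.56 ± 0.62 on the log2 scale (SE, n = 3 each, adjusted p 0.002), a 5.90-fold difference. The log2 fold change was -0.44 ± 0.73 at 3 dpi (adjusted p 0.81), 1.23 ± 0.59 at 7 dpi (adjusted p 0.18) and -0.12 ± 0.85 at 21 dpi (adjusted p 0.93). The last value had a 95% interval from -1.79 to 1.55, which leaves differences in either direction within reach, and it was 0.80 without FLM replicate 1 and 0.37 without EcM replicate 2, the library with no count.

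Of the 3 gene models 1, 1, 3 and 1 were thus called higher in EcM than in FLM at 3, 7, 14 and 21 dpi, and none was called lower. Among all gene models tested, 1.78%, 3.68%, 4.03% and 2.12% were called higher on these days and 0.155%, 0.245%, 2.77% and 3.52% lower. Whether the difference between EcM and FLM itself changed with the day was tested as an interaction. For MiSSP8 it was larger at 14 than at 7 dpi, by 2.43 ± 0.66 (adjusted p 0.017, with 1.62% of all gene models called higher), and smaller at 21 than at 14 dpi, with a log2 difference of -2.73 ± 0.56 (adjusted p 0.0042, with 1.31% of all called lower). Without FLM replicate 3 of 7 dpi the first of these was 2.29 (adjusted p 0.068). For MiSSP17 the same contrasts were 3.22 ± 1.07 (adjusted p 0.051) and -0.33 (adjusted p 0.96), and for MiSSP7 1.33 ± 0.86 (adjusted p 0.36) and -2.68 ± 1.06 (adjusted p 0.13), none of which was called. The SE that followed from F for the second MiSSP17 value, 2.53, is not reliable. It was 0.863 without EcM replicate 3 of 21 dpi, and 0.882 and 1.295 without FLM replicate 3 or 2 of 14 dpi. The MiSSP17 difference at 14 against 7 dpi was called with DESeq2 (3.27, adjusted p 0.01), with median-of-ratios size factors (3.26, adjusted p 0.046) and with limma on log2 RPKM (2.90, adjusted p 0.029). It was also called by edgeR without FLM replicate 2 of 7 dpi (3.58, adjusted p 0.038), without EcM replicate 3 of 7 dpi (3.45, adjusted p 0.04) and without FLM replicate 1 of 14 dpi (6.84, adjusted p 0.0086). In the last of these fits the remaining FLM libraries of 14 dpi had no count, so the counts do not fix its size. These were 3 of 12 fits with 1 library left out, whose values reached down to 2.43 and adjusted p up to 0.33. Of the 6 alternatives 3 called the difference, and adjusted p reached 0.073 in the others.

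Taking both late days against both early days, the difference between EcM and FLM was larger late for MiSSP8 (1.36 ± 0.46, adjusted p 0.026) and for MiSSP17 (3.01 ± 0.94, adjusted p 0.017), and was not called to differ for MiSSP7 (0.82 ± 0.71, adjusted p 0.42). These 2 calls stood beside 1.85% of all gene models called higher. Both were lost without FLM replicate 3 of 7 dpi, at 1.30 for MiSSP8 (adjusted p 0.057) and 2.62 for MiSSP17 (adjusted p 0.064), and the value of MiSSP8 was also not called without FLM replicate 2 of 3 dpi (1.20, adjusted p 0.062). Without FLM replicate 1 of 14 dpi the value of MiSSP17 was 4.83 (adjusted p 0.0024). The remaining FLM libraries of 14 dpi had no count of it, so the counts do not fix the size of that value. With limma on log2 RPKM none of the 3 interaction values of MiSSP8 was called, at 2.33 for 14 against 7 dpi (adjusted p 0.16), -2.70 for 21 against 14 dpi (adjusted p 0.12) and 1.25 for late against early (adjusted p 0.2).

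**Figure D2:**
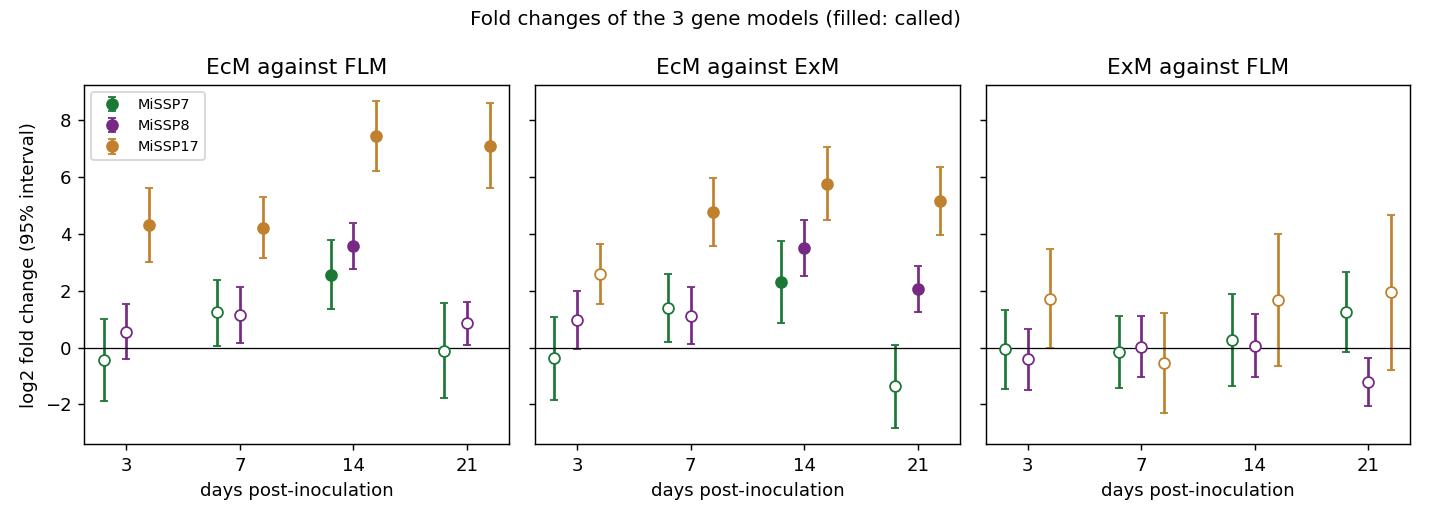
Log2 fold changes with 95% intervals (vertical axis) of MiSSP7, MiSSP8 and MiSSP17 against days post-inoculation for EcM against FLM, EcM against ExM and ExM against FLM, with filled points for called differences. MiSSP17 is filled on all 4 days against FLM, all 3 gene models are filled at 14 dpi in both comparisons of EcM, and no point of ExM against FLM is filled.

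EcM was next compared with ExM, which shared the plate with the plant but lay away from the root. At 3 dpi none of the 3 gene models was called by edgeR, where 0.0386% of all gene models were called higher, although MiSSP17 had an unadjusted p under the threshold of 0.05 and did not overlap, with a log2 fold change of 2.59 ± 0.55 (adjusted p 0.077). DESeq2 called it at this day (2.61, adjusted p 0.0029), as did edgeR without EcM replicate 3 (2.74, adjusted p 0.035). These were 1 of 6 alternatives and 1 of 6 fits with 1 library left out. In the others adjusted p reached 0.23 and 0.61. At 7 dpi MiSSP17 was called higher by 4.77 ± 0.61 (adjusted p 4.2e-05, n = 3 each), beside 0.29% of all gene models, and the value was 5.37 without ExM replicate 1 and 4.17 without ExM replicate 3. MiSSP7 at 1.40 ± 0.61 (adjusted p 0.42) and MiSSP8 at 1.12 ± 0.52 (adjusted p 0.46) were not called at 7 dpi. Their EcM and ExM libraries did not overlap.

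At 14 dpi all 3 gene models were higher in EcM than in ExM, beside 3.02% of all gene models. The log2 fold change was 2.31 ± 0.73 for MiSSP7 (adjusted p 0.022), 3.51 ± 0.51 for MiSSP8 (adjusted p 6.7e-06) and 5.77 ± 0.66 for MiSSP17 (adjusted p 2e-07), with 3 EcM and 2 ExM libraries. For MiSSP7, ExM replicate 1 had 2 counts and replicate 2 had 18. Its log2 fold change was 1.51 without ExM replicate 1 (adjusted p 0.24), 4.56 without ExM replicate 2 (adjusted p 0.017) and 2.10 without EcM replicate 2 (adjusted p 0.065), while that of MiSSP17 was 6.78 without ExM replicate 1. At 21 dpi MiSSP8 (2.06 ± 0.42, adjusted p 0.00028) and MiSSP17 (5.15 ± 0.61, adjusted p 1.5e-07) were called higher in EcM, beside 1.44% of all gene models. MiSSP7 was at -1.37 ± 0.74 (adjusted p 0.16) on that day, with overlapping libraries. With limma on log2 RPKM this value was -2.37 and called (adjusted p 0.038). No fit with 1 library left out called it (adjusted p 0.11 to 0.41).

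Between ExM and FLM none of the 3 gene models was called by edgeR's test on any day, where 1.52%, 2.02%, 0.0451% and 1.65% of all gene models were called in either direction at 3, 7, 14 and 21 dpi. Of these 12 values 1 had an unadjusted p under 0.05, which was MiSSP8 at 21 dpi. It was lower in ExM than in FLM without overlap, at a log2 fold change of -1.21 ± 0.43 (95% interval from -2.05 to -0.36, adjusted p 0.057). The adjusted p was 0.026 by DESeq2 and 0.031 in a fit of the libraries of both groups alone, each of which called the difference, beside 0.657% of all gene models called lower in the fit of all libraries. Of the 6 alternatives 3 called it, and adjusted p reached 0.31 in the others. No fit with 1 library left out called it (adjusted p 0.07 to 0.16). MiSSP17 at 3 dpi had 23 counts in ExM and 7 in FLM, a ratio of 3.46 with a counting interval from 1.44 to 9.54 and no overlap, and its log2 fold change of 1.73 ± 0.89 was not called (adjusted p 0.3). The remaining values lay between -0.55 and 1.95, and the depth behind MiSSP17, with 2 to 23 summed counts per group, could not show moderate differences. The comparisons of EcM with FLM and of ExM with FLM shared the FLM libraries, and those of EcM with FLM and with ExM shared the EcM libraries.

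Within EcM, the 3 gene models followed different courses from day to day. MiSSP7 was called higher at 7 than at 3 dpi, by 2.08 ± 0.66 on the log2 scale (SE, n = 3 each, adjusted p 0.019, beside 2.43% of all gene models called higher), and lower at 21 than at 14 dpi, at -2.70 ± 0.69 (adjusted p 0.0067, beside 1.89% called lower). The first of these calls was lost without EcM replicate 2 of 3 dpi (2.08, adjusted p 0.055), without replicate 3 of 3 dpi (1.85, adjusted p 0.077), without replicate 2 of 7 dpi (1.66, adjusted p 0.1) and with limma on log2 RPKM (1.97, adjusted p 0.12). Between 7 and 14 dpi MiSSP7 differed by 0.64 ± 0.55 (adjusted p 0.39), with overlapping libraries.

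MiSSP8 had a log2 fold change of 0.22 ± 0.47 between 7 and 3 dpi (adjusted p 0.79), with overlapping libraries, and was called higher at 14 than at 7 dpi by 3.14 ± 0.41 (adjusted p 1.1e-06), an 8.80-fold difference. MiSSP17 was already above FLM at 3 dpi, differed by 0.84 ± 0.41 between 3 and 7 dpi (adjusted p 0.14), and was called higher at 14 than at 7 dpi by 1.75 ± 0.39 (adjusted p 0.00082). These 2 calls stood beside 2.48% of all gene models. At 21 dpi both gene models had about the same log2 difference from 14 dpi, -0.97 ± 0.36 for MiSSP8 (adjusted p 0.06) and -1.07 ± 0.38 for MiSSP17 (adjusted p 0.051), neither of which was called. Without EcM replicate 1 of 14 dpi MiSSP8 was called lower (-1.20, adjusted p 0.041), and without EcM replicate 2 of 21 dpi MiSSP17 was (-1.56, adjusted p 0.017). Each was 1 of 6 fits with 1 library left out. In the others adjusted p reached 0.24 for MiSSP8 and 0.26 for MiSSP17. In ExM none of the 3 gene models was called between consecutive days, where 3.14%, 4.05% and 3.88% of all gene models were called in either direction at 7, 14 and 21 dpi against the day before. In FLM the corresponding shares at 3, 7 and 14 dpi were 0.0451%, 1.42% and 4.41%, again with none of the 3, and the 1 call in FLM was that of MiSSP8 at 21 dpi, beside 2.21% of all gene models called higher.

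Ordered by mean level, EcM at 14 dpi was the highest of the 13 groups for each of the 3 gene models. For MiSSP17 the 4 EcM groups took the first 4 ranks, in the order 14, 21, 7 and 3 dpi, of which 14 dpi was apart from 21 dpi and 3 dpi apart from the next group, ExM at 3 dpi, while neighbours between them overlapped. Its other 9 groups had means of 0.582 RPKM or less and overlapped with their neighbours. For MiSSP8 the first 3 ranks, EcM at 14 dpi, EcM at 21 dpi and FLM at 21 dpi, were each apart from the next, and from the fourth rank, ExM at 21 dpi at 3.46 RPKM, down to the lowest, ExM at 3 dpi at 1.28 RPKM, every neighbour overlapped. MiSSP7 had no step in its order, since every group overlapped with the next from EcM at 14 dpi at 9.58 RPKM and EcM at 7 dpi at 6.06 RPKM through ExM at 21 dpi at 3.93 RPKM and FLM at 7 dpi at 2.93 RPKM down to EcM at 3 dpi at 1.36 RPKM and EcM at 21 dpi at 1.25 RPKM. EcM thus held both ends of the order of MiSSP7.

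Levels of different gene models can be compared per transcript length. In EcM at 14 dpi MiSSP8 averaged 27.4 RPKM, MiSSP17 21.9 RPKM and MiSSP7 9.58 RPKM, which placed MiSSP8 above 68.4%, MiSSP17 above 62.4% and MiSSP7 above 42.1% of the gene models tested. In FLM of the same day MiSSP8 was above 15.8%, MiSSP7 above 11.6% and MiSSP17 above 0.7% of them. Within single EcM libraries MiSSP17 was above MiSSP8 at 3 and 7 dpi, with a ratio of RPKM of 1.27, 1.31 and 1.85 at 3 dpi and of 1.12, 2.88 and 2.57 at 7 dpi. At 14 dpi the ratio was 0.990, 0.747 and 0.736, so that MiSSP8 was level with MiSSP17 or above it, and at 21 dpi it was 0.957, 1.39 and 0.212, with no common direction.

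**Figure D3:**
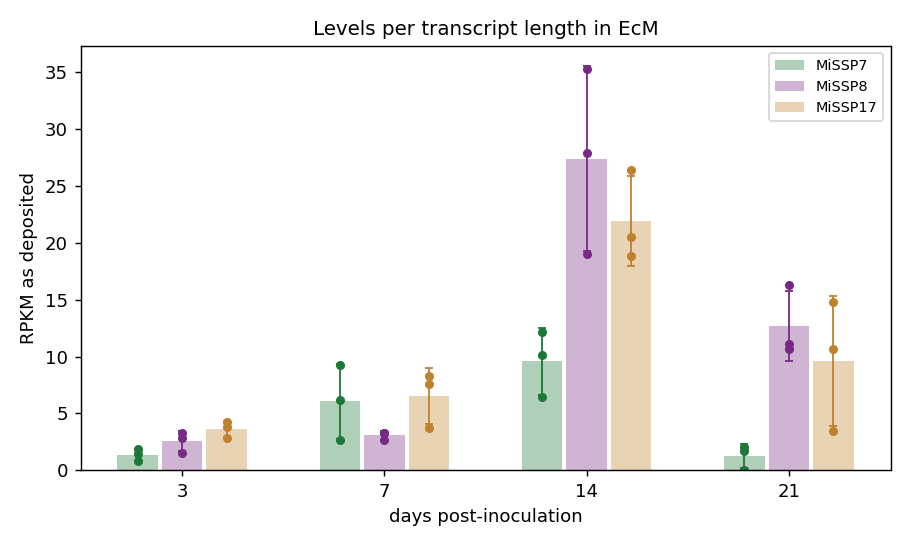
RPKM as deposited (vertical axis, linear) of MiSSP7, MiSSP8 and MiSSP17 in the EcM libraries against days post-inoculation, with a point for each library and bars and whiskers for mean and SD of 3 libraries. MiSSP17 has the highest mean at 3 dpi at 3.61 RPKM and at 7 dpi at 6.55 RPKM, MiSSP8 has the highest at 14 dpi at 27.4 RPKM and at 21 dpi at 12.7 RPKM, and MiSSP7 ends at 1.25 RPKM.

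The likeness of the 3 gene models to each other was described next. Over the 13 group means of log2 CPM, Pearson's r was 0.66 between MiSSP8 and MiSSP17, 0.44 between MiSSP7 and MiSSP17 and 0.34 between MiSSP7 and MiSSP8. Over the 12 EcM libraries r between MiSSP8 and MiSSP17 was 0.78 and over the 14 FLM libraries -0.53. In the FLM libraries MiSSP17 had only 0 to 12 counts, so the second value rests largely on counts near the floor. All such coefficients are descriptions, since groups share the sampling days and libraries share their depth across gene models. Among all gene models tested, the 5 with the highest r were listed for each of the 3, so that their r is high by choice. The gene models closest to MiSSP17 over the 13 groups were 603166 (r 0.99), annotated by the study as a gluconate transport-inducing protein, 674406 (r 0.97), a chitinase, 484367 (r 0.97), 695050 (r 0.95) and 313221 (r 0.94), an ammonium transporter with the symbol LbAMT2.3c. Closest to MiSSP8 were 665393 (r 0.97), 399488 (r 0.97), 472925 (r 0.96), a short-chain dehydrogenase/reductase, 694245 (r 0.96) and 686415 (r 0.96). For MiSSP7 the closest were 442651 (r 0.88), 477527 (r 0.86), 627568 (r 0.85), 572713 (r 0.85) and 701214 (r 0.84). When likeness was measured by Spearman's rho over the 37 libraries instead, 1 of the 5 remained among the first 5 for MiSSP7, and 0 for MiSSP8 and for MiSSP17.

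To set the 3 gene models beside their kind, 29 other gene models named as MiSSP were examined, 26 of which passed the filter. They are the union of 13 gene models that the study names and 20 that carry a MISSP symbol in the reference gene table, a list added after the files had been seen, with 4 in both. The study picked 5 of them as regulated in this time course, and these are given apart. Among the other 24, of which 21 were tested, 1 was called higher and 1 lower in EcM than in FLM at 3 dpi, 6 higher and 0 lower at 7 dpi, 7 higher and 0 lower at 14 dpi, and 3 higher and 3 lower at 21 dpi. Over all gene models tested the shares on these days were 1.78%, 3.68%, 4.03% and 2.12% higher and 0.155%, 0.245%, 2.77% and 3.52% lower. Their median log2 fold changes at 3, 7, 14 and 21 dpi were 0.43, 0.61, 0.50 and 0.07, while that of all gene models tested was within 0.01 of 0 on each day. At 3 dpi the member called higher was 328309 (2.43 ± 0.45, adjusted p 0.0016) and the one called lower 293729 (-1.40 ± 0.39, adjusted p 0.034), a call that was lost without any 1 of the libraries compared other than FLM replicate 2. At 7 dpi 3 in place of 6 were called higher in a fit of EcM and FLM of that day alone.

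The most strongly elevated of these at 14 dpi were far more abundant than MiSSP7, MiSSP8 or MiSSP17. Gene model 395403 averaged 2427 ± 291 RPKM in EcM and 60.8 ± 10.6 RPKM in FLM (SD, n = 3 each), a log2 fold change of 5.47 ± 0.71 (adjusted p 1.9e-06), and 295729 averaged 1894 ± 463 RPKM in EcM and 126 ± 33.4 RPKM in FLM, with 4.06 ± 0.36 (adjusted p 2.8e-09). Both were also called higher in EcM than in FLM at 7 and 21 dpi. At 21 dpi 395403 averaged 1581 ± 396 RPKM in EcM, 1328 ± 435 RPKM in ExM and 224 ± 83.2 RPKM in FLM. On that day 295729 averaged 871 ± 144 RPKM in EcM, 1834 ± 308 RPKM in ExM and 353.5 ± 12.9 RPKM in FLM. Gene model 485570 averaged 80.3 ± 3.94 RPKM in EcM and 9.74 ± 0.600 RPKM in FLM at 14 dpi (3.19 ± 0.43, adjusted p 2.5e-06). At 21 dpi 3 gene models were lower in EcM than in FLM, namely 315282 (-2.73 ± 0.40, adjusted p 6.6e-06), 307960 (-2.44 ± 0.63, adjusted p 0.0034) and 293729 (-1.24 ± 0.39, adjusted p 0.014). Gene model 307960 had been called higher at 14 dpi (1.76 ± 0.54, adjusted p 0.014), when MiSSP7 was called too.

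Of the 5 gene models that the study had picked, 0, 4, 5 and 2 were called higher in EcM than in FLM at 3, 7, 14 and 21 dpi, beside 1.78%, 3.68%, 4.03% and 2.12% of all gene models. MiSSP12 (312262) averaged 80.9 ± 6.64 RPKM in EcM and 4.13 ± 1.16 RPKM in FLM at 14 dpi (4.40 ± 0.40, adjusted p 3.6e-09). This is the study's name, while the reference gene table gives 312262 the symbol MISSP11.8 and uses MISSP12 for gene model 395257. Gene models 620230 and 596686 had no count in any FLM library of 14 dpi and were at least 24.1-fold and at least 41.8-fold higher in EcM, against the floor of 3 counts per library. Across all 26, 12 were called higher in EcM than in FLM at 14 dpi, beside 4.03% of all gene models. These include the 5 picked on these libraries, whose calls are not independent of that choice. Of the other 21 gene models 7 were called higher. Between ExM and FLM of that day 0 of the 26 were called, where 0.0451% of all gene models were called in either direction. On the other days some of the 26 were called between ExM and FLM, with 1 called higher at 3 dpi, 4 at 7 dpi, and 4 higher and 1 lower at 21 dpi, beside 1.31%, 1.97% and 0.998% of all gene models called higher on these days. Among these, 295729 was higher in ExM than in FLM at 21 dpi (2.34, adjusted p 2.4e-05), when MiSSP8 had a value of -1.21 in that comparison.

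**Figure D4:**
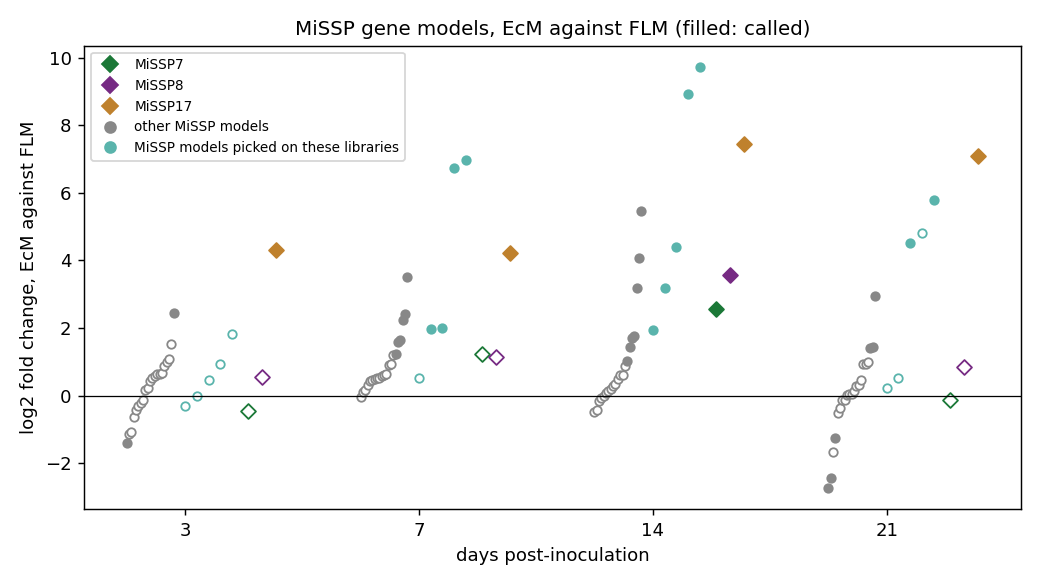
Log2 fold change of EcM against FLM (vertical axis) by days post-inoculation for MiSSP7, MiSSP8 and MiSSP17 (diamonds), 21 other MiSSP gene models (grey circles) and 5 that the study picked on these libraries (green circles), with filled symbols for called differences. MiSSP17 is the highest symbol at 3 dpi at 4.31 and at 21 dpi at 7.10, MiSSP8 and MiSSP7 are filled at 14 dpi at 3.58 and 2.56, and the fitted values of the gene models with no count in FLM are not bounds.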

How the data were processed

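RNA was sequenced from 37 samples grouped by kind of mycelium and day as their labels give them. According to the protocols, stranded mRNA libraries were read on an Illumina HiSeq3000. The authors aligned trimmed reads to the transcripts of the L. bicolor v2 genome with CLC Genomics Workbench, allowing several hits per read. The deposited raw read counts are whole numbers per gene model that the authors did not normalize. The deposited RPKM values were computed by the authors per transcript length and library size. It is not given whether a count is of uniquely or of all placed reads, so gene models with near-identical copies are uncertain. Poplar reads matching a fungal transcript would be included.

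Counts were analysed with edgeR 4.0.16 in R 4.3.3. After a low-count filter (filterByExpr, minimum count 10, minimum total 15), TMM scaling was applied and all 37 libraries entered 1 robust model with a term for each of the 13 groups. The 25 contrasts were tested two-sided with the quasi-likelihood F-test, with p-values adjusted over 15533 gene models. Standard errors follow from the F values, and 95% intervals use a factor of 1.96. Such standard errors can be unreliable for values near 0 that rest on few counts. CPM values use TMM library sizes, and log2 CPM a prior count of 2. Intervals of count ratios are exact Clopper-Pearson intervals. Levels are RPKM as deposited. The alternatives, all with effects given at the end, were DESeq2 1.42.0, median-of-ratios factors, all gene models with a count, the groups compared fitted alone, the replicate number as a block, each library left out, and limma 3.58.1 on log2(RPKM + 0.1). On simulated counts for EcM against FLM at 14 dpi, with 200 changed gene models among 15314 tested, edgeR recovered 73 of 74 with a log2 change of 2, 65 of 65 with 3 and 60 of 61 with 4, with 6 false calls. The simulation gave every gene model the same spread, and unchanged groups the same mean. That spread was smaller than the one estimated for MiSSP7, MiSSP8 or MiSSP17. Recovery at their spread and low counts was not tested.

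Gene models described were the 3 named ones, the other MiSSP gene models, and for each of the 3 the 5 with the highest Pearson correlation of group means. These members, lists and contrasts were chosen with earlier results of these data known. 1 gene model named in the study was not analysed here. The reference table is of assembly V1.0, so its coordinates were not used, and 6580 gene models matched one of its locus tags by number. Libraries of a group differed by more than sampling noise in every pair (the lowest chi-square over its degrees of freedom was 4.59). The labels name no sequencing batch and do not say what replicate numbers share. Same-numbered EcM and ExM libraries of 21 dpi, both from co-culture, deviated together from their group means (r 0.122, 0.15 and 0.165). For EcM and ExM, no other day had a positive r in every same-numbered pair. Smaller positive values in every such pair were found for EcM and FLM at 3 dpi (0.002, 0.002 and 0.03) and for ExM and FLM at 14 dpi (0.079 and 0.028).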

Additional observations from a re-analysis of the deposited data

Results flagged for a closer look

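The difference between EcM and FLM changed with the day in 4 tests of the interaction, with 3 libraries per group, in edgeR's quasi-likelihood test. For MiSSP8 the log2 fold change of EcM against FLM was larger at 14 than at 7 dpi by 2.43 (adjusted p 0.017) and differed by -2.73 between 21 and 14 dpi (adjusted p 0.0042). FLM at 21 dpi, at 7.01 to 8.40 RPKM, was above FLM of all earlier days, while EcM at 21 dpi, at 10.7 to 16.3 RPKM, was below EcM at 14 dpi, and both enter the second value. Taking 14 and 21 dpi against 3 and 7 dpi, the difference between EcM and FLM was larger late by 1.36 for MiSSP8 (adjusted p 0.026) and by 3.01 for MiSSP17 (adjusted p 0.017). FLM replicate 3 of 7 dpi touched 3 of the 4 values, and without it the first was 2.29 (adjusted p 0.068), the third 1.30 (adjusted p 0.057) and the fourth 2.62 (adjusted p 0.064).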

How the results depend on the processing

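EcM against FLM kept its count of called gene models, 1, 1, 3 and 1 at 3, 7, 14 and 21 dpi, under all 6 alternative analyses and with each library left out. For MiSSP8 at 21 dpi the size threshold of 1 fixed this outcome. The 6 alternatives gave log2 fold changes of 0.67 to 0.86 there, with adjusted p from 0.032 to 0.49. Whether libraries of a day are paired was not settled. Same-numbered libraries deviated from their group means with a mean correlation of -0.03 over 34 pairs, against 0.015 over 68 pairs with other numbers. These means are tied to each other, since the deviations within a group sum to 0. Same-numbered EcM and ExM libraries ranged from -0.448 to 0.28, while EcM replicate 1 and ExM replicate 3 of 7 dpi reached 0.386. What such libraries shared was not tested, and fits without a block treated them as independent. In the block fit of EcM and ExM at 21 dpi alone, chosen after seeing the data, the calls of MiSSP8 (2.04) and MiSSP17 (5.06) held, and MiSSP7 was not tested. With the replicate number as a block over all libraries, 1 of the 3 gene models in place of 0 was called in ExM against FLM at 21 dpi (MiSSP8, -1.22, adjusted p 0.046) and 2 in place of 1 in EcM at 21 against 14 dpi (MiSSP17, -1.12, adjusted p 0.047), and no other of the 25 counts changed. ExM against FLM at 21 dpi also gave 1 call with DESeq2 and with the groups compared alone. DESeq2 gave 1 call in place of 0 in EcM against ExM at 3 dpi and 2 in place of 1 in the EcM effect at 14 minus 7 dpi. Median-of-ratios factors gave 2 calls in that contrast and 2 in EcM at 21 against 14 dpi. Limma on log2 RPKM called MiSSP17 in place of MiSSP8 in the effect at 14 minus 7 dpi and gave 0 calls in EcM at 7 against 3 dpi, in FLM at 21 against 14 dpi and in the EcM effect at 21 minus 14 dpi, and 1 in the late minus early effect. In EcM against ExM at 21 dpi limma gave 3 calls in place of 2, with MiSSP7 called lower. Without a low-count filter no count changed.

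With 1 library left out, the count was 0 to 1 in EcM against ExM at 3 dpi, EcM at 7 against 3 dpi, FLM at 3 against 0 dpi (MiSSP8, without FLM replicate 2 of 0 dpi) and FLM at 14 against 7 dpi (MiSSP17, without FLM replicate 1 of 14 dpi), 1 to 2 in EcM at 21 against 14 dpi, and 0 to 2 in the EcM effect at 14 minus 7 dpi and in the late minus early effect. In EcM against ExM at 14 dpi the count was 2 to 3, with MiSSP7 not called without EcM replicate 2. Values near 0 changed sign in fits with 1 library left out. MiSSP7 ranged from -0.68 to 0.80 in EcM against FLM at 21 dpi and from -0.70 to 0.44 in EcM against ExM at 3 dpi, MiSSP8 from -0.024 to 0.44 in EcM at 7 against 3 dpi, and MiSSP17 from -3.91 to 0.40 in the EcM effect at 21 minus 14 dpi. For the 8 MiSSP gene models of the study's other experiments, with 0, 2, 4 and 2 called higher and 0, 0, 0 and 1 lower in EcM against FLM at 3, 7, 14 and 21 dpi, the groups compared alone gave 1 higher and 1 lower at 3 dpi, 1 higher at 7 dpi, and 1 higher and 2 lower at 21 dpi. DESeq2 and limma gave 2 lower at 21 dpi, and with 1 library left out 2 to 4 were higher at 14 dpi. Among the 8, gene model 333197 is named by the study from a clustering made in part from these libraries. The causes were not tested. Where ExM at 14 dpi or FLM at 0 dpi was left with 1 library, that library was assumed to vary like the other groups. Depth limits MiSSP17 outside EcM, where 0 to 12 counts per library were found, and MiSSP7 throughout.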
